A study of Mus musculus with 16 samples.

Results

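The enzymes and regulators that muscle uses to burn sugar and to store it as glycogen were followed through 10 genes in the skeletal muscle of mice on a high-fat diet. They were chosen by gene name, as the rows of the deposited mRNA table named Hk2, Pfkm, Pfkfb3, Pgam2, Pkm, Ldha, Gys1, Gbe1, Pygm or Txnip, and the counts of all transcripts of a name were summed. All 10 names were found among the 23235 gene names of the table, and all 10 were among the 15364 genes with enough counts to be tested. The mice were C57BL/6J males (C57BL/6 in the strain label) bought at 6 weeks of age, and each of 4 groups held 4 mice with 1 RNA library each. The control group ate a normal diet. The HFD group ate a high-fat diet with 60% fat, which was given for 8 weeks to bring on insulin resistance. After 8 weeks of that diet, the HFD+RSV group was given resveratrol (RSV), a plant polyphenol, for 6 weeks. The HFD+MET group was given metformin (MET), a drug for type 2 diabetes, for 6 weeks after the same 8 weeks. The study's methods do not say whether the diet went on during treatment. The muscle is not named, the metformin dose is not given, and nothing says whether the sequenced mice had received insulin before sampling. The study asked how resveratrol acts on insulin resistance of muscle. Its paper describes the control, HFD and HFD+RSV groups, while the metformin mice are known from the deposited samples and are not described there.

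Glucose that enters a muscle fibre is trapped as glucose 6-phosphate, and it is then split to pyruvate and lactate by glycolysis or built into glycogen. Fast fibres, which work in bursts, carry large amounts of glycolytic enzymes and of the phosphorylase that frees glucose from glycogen, while slow fibres rely more on oxidation. Insulin moves glucose transporters to the surface of the fibre and activates glycogen synthase, so this route is a main site of insulin resistance.

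Total counts per mouse over the mRNA and lncRNA tables ranged from 20281801 to 34021101, and the 10 genes took between 1.33% and 2.01% of the mRNA counts of a mouse. All 5 muscle-defining genes (Acta1, Ckm, Des, Ttn, Neb) were abundant, with a summed level of 17100 to 25200 FPKM (fragments scaled by transcript length and library size) in every mouse. Retinal tissue is named in the extraction protocol of the labels, but the 3 of 6 retinal marker genes found in the table summed to at most 0.574 FPKM in any mouse. The labels of the 4 HFD mice share a leading number that no other mouse carries. What this number marks is not given, and it cannot be told apart from the group.

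Between HFD and control mice, Pgam2 was higher and Gbe1 and Txnip were lower in all 4 HFD mice than in all 4 control mice, and the other 7 genes overlapped between the groups. None of the 10 passed the test at a Benjamini-Hochberg adjusted P of 0.05 (edgeR quasi-likelihood test over all genes, 16 mice in 1 fit), while 2.43% of all genes tested did. Of the 10 genes, 3 had an unadjusted P under 0.05, Pgam2 with a higher and Gbe1 and Txnip with a lower level in the HFD group, against 24.2% of all genes. The share of the 10 genes at this P was therefore near that of genes at large. No gene of the 10 met the study's criteria of P under 0.05 with an absolute log2FC above 1, which 4.94% of all genes met. The unadjusted P was used for this, while the study also mentions control of the false discovery rate. The 3 genes without overlap stand against 18.3% of all genes whose HFD and control mice did not overlap. The call depended on the mice that shared the fit and on the test used. With the 12 mice other than the metformin group, Pgam2, Gbe1 and Txnip passed at adjusted P-values of 0.0301, 0.0173 and 0.0245 (10.7% of all genes passed in that fit), and DESeq2 on 16 mice called the same 3 names (10.5% of all genes). Over the 10 genes, the median log2FC of HFD against control mice was 0.22, and over all genes tested it was -0.02.

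The levels below are counts scaled by library size (CPM) after scaling of the libraries by the trimmed mean of M values (TMM), and the log2FC of a gene comes from the fit to its counts. Levels of different genes are compared only in FPKM, which divides by transcript length. The study's methods describe TMM normalization ahead of FPKM, but the deposited FPKM follow the counts without that scaling between mice. On that scale, Pygm was the most abundant of the 10 (median 2015 FPKM over 16 mice), followed by Pfkm (1037), Pkm (910), Pgam2 (785), Ldha (665), Txnip (340), Pfkfb3 (172), Gys1 (89.0), Hk2 (72.5) and Gbe1 (15.6). In the control group, Pfkm (921 ± 91.7 FPKM, SD, n = 4) and Pkm (787 ± 64.9) lay nearer to each other than Pygm (1669 ± 277) lay to either, and the ranges of Ldha (470 to 649 FPKM) and Pgam2 (492 to 688 FPKM) overlapped.

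**Figure D1:**
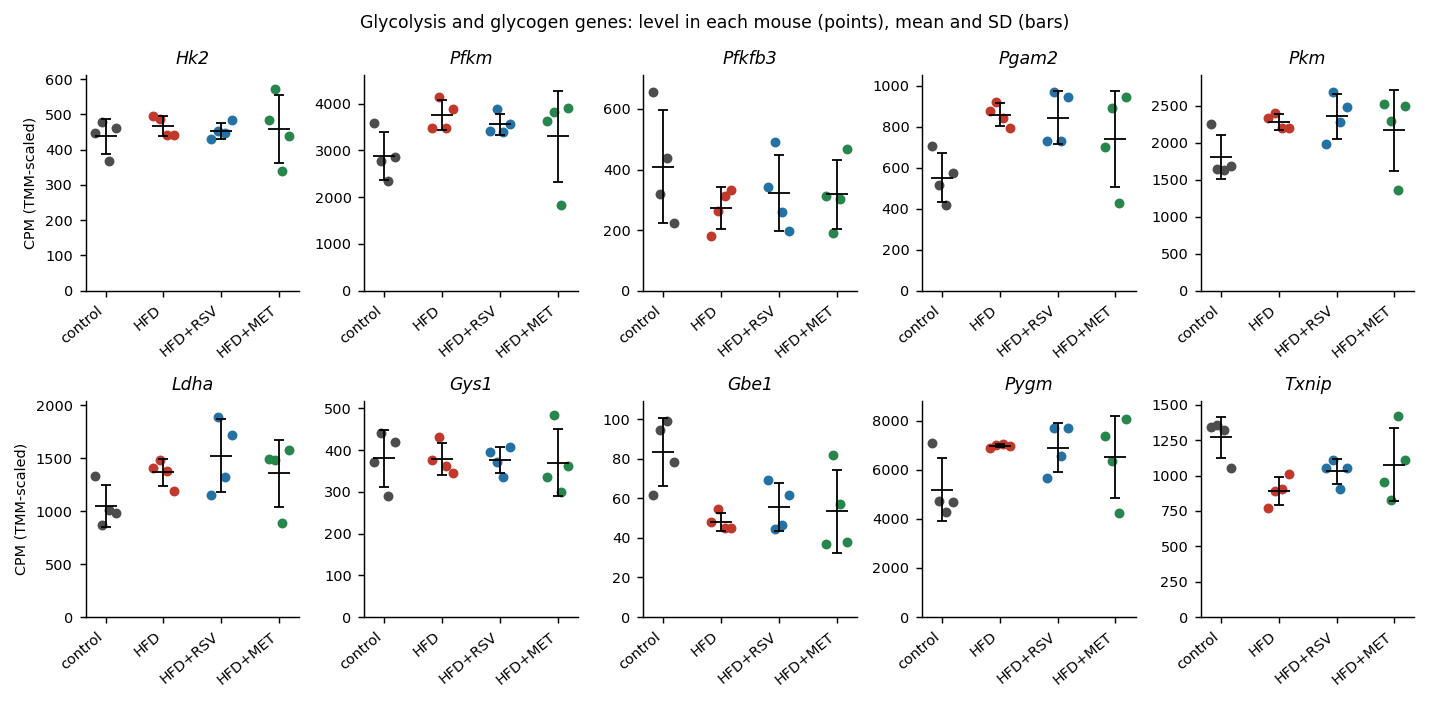
TMM-scaled CPM of each of the 10 genes (vertical axes, starting at 0) in the control, HFD, HFD+RSV and HFD+MET groups. Each point is 1 mouse, and bars give the mean and the SD of 4 mice. The HFD mice lie above all control mice for Pgam2 (793 to 923 against 418 to 704) and below them for Gbe1 and Txnip.

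Sugar entry and the upper steps of glycolysis were represented by Hk2, Pfkm and Pfkfb3. Hk2 (chr6:82725025-82774454 of GRCm38, minus strand) encodes the hexokinase of insulin-sensitive tissue, which traps glucose in the fibre. Its level was 446, 477, 366 and 460 CPM in the control mice and 495, 488, 442 and 441 CPM in the HFD mice. The groups overlapped, with a log2FC of 0.09 ± 0.14 (SE) and an adjusted P of 0.715. Its mean in FPKM, which lacks the TMM scaling, ran the other way, from 74.0 in control mice to 71.0 in HFD mice, so that no direction can be read for Hk2.

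Pfkm (chr15:98092589-98132451, plus strand), the muscle form of phosphofructokinase and the committed step of glycolysis, had 3583, 2767, 2341 and 2859 CPM in the control mice and 3489, 4140, 3483 and 3896 CPM in the HFD mice. A single control mouse, replicate 1, reached the range of the HFD mice. The log2FC was 0.38 ± 0.20 (adjusted P = 0.267). Pfkfb3 (chr2:11471433-11554077, minus strand) encodes an enzyme that makes and breaks fructose 2,6-bisphosphate, the activator of phosphofructokinase, and it had the largest coefficient of variation of the 10 in every group but HFD+MET (25.3% to 45.3%). It ranged from 225 to 656 CPM in control mice (409 ± 186, SD) and from 179 to 334 CPM in HFD mice (272 ± 68.8), a log2FC of -0.59 ± 0.35 with an adjusted P of 0.317. It has 21 transcripts in the table. The largest of them, with 33.1% of the counts of the gene, is annotated in GENCODE as retaining an intron, and lncRNA rows that overlap the gene held counts equal to 2.13% of its own.

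The lower steps were represented by Pgam2, Pkm and Ldha. Pgam2 (chr11:5801640-5803733, minus strand) is the muscle form of phosphoglycerate mutase, which moves the phosphate of 3-phosphoglycerate, and it has 1 transcript in the table. Its level was 704, 517, 418 and 572 CPM in the control mice and 877, 923, 845 and 793 CPM in the HFD mice. The lowest HFD mouse stood above the highest control mouse. The log2FC was 0.64 ± 0.22, with an adjusted P of 0.102. The exact two-sided permutation test gave P = 0.0286, the smallest that 4 mice against 4 allow. Groups of 4 that do not overlap always give this value, so it adds nothing to the lack of overlap.

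Pkm (chr9:59656368-59679375, plus strand), pyruvate kinase, makes pyruvate in the last step of glycolysis. It had 2249, 1639, 1635 and 1690 CPM in the control mice and 2333, 2400, 2196 and 2192 CPM in the HFD mice. The other 3 control mice lay below all HFD mice, while replicate 1 lay among them, and the log2FC was 0.34 ± 0.18 (adjusted P = 0.265). Ldha (chr7:46841475-46855627, plus strand) encodes the lactate dehydrogenase subunit that prevails in fast fibres. It had 1330, 869, 1006 and 984 CPM in the control mice and 1408, 1482, 1382 and 1189 CPM in the HFD mice. Control replicate 1 again reached into the HFD range, with a log2FC of 0.38 ± 0.20 (adjusted P = 0.254).

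**Figure D2:**
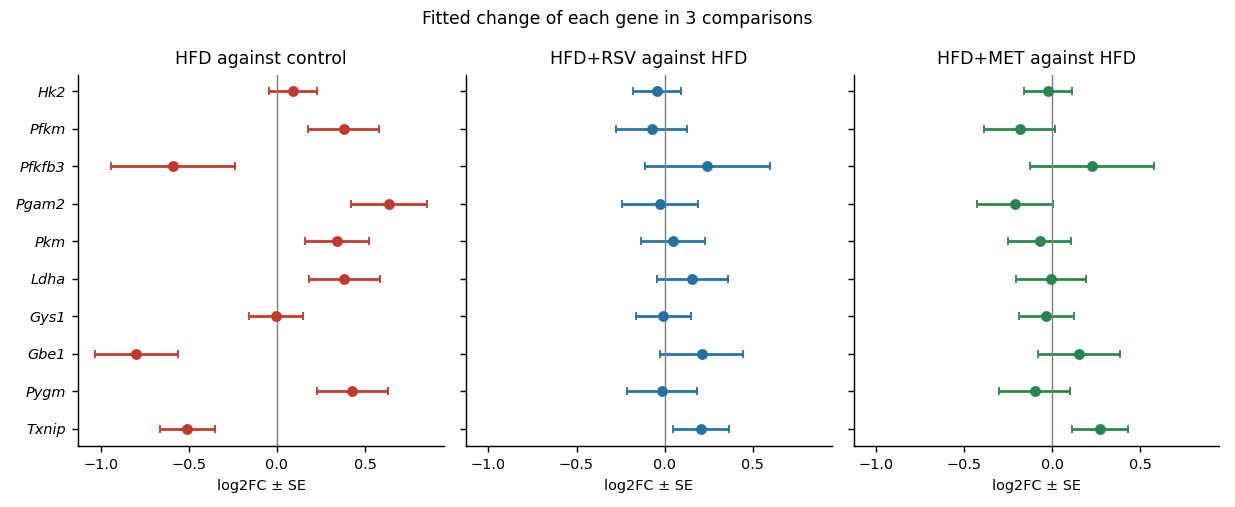
Fitted log2FC of the 10 genes (horizontal axes) in the HFD group against control and in the HFD+RSV and HFD+MET groups against HFD. Points are estimates and bars are 1 SE from the fit to 16 mice. Against control, Pgam2 stood at 0.64 and Gbe1 at -0.80, while all values against HFD lay between -0.21 and 0.27.

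Glycogen was represented by its synthase, branching enzyme and phosphorylase. Gys1 (chr7:45434844-45456619, plus strand), the muscle glycogen synthase that insulin activates, had 370, 441, 289 and 419 CPM in the control mice and 376, 432, 361 and 344 CPM in the HFD mice. All HFD mice lay within the range of the control mice, and the log2FC was -0.01 ± 0.16. Gbe1 (chr16:70313949-70569716, plus strand) encodes the enzyme that puts branches into glycogen, and it was the least abundant of the 10. Its level was 61.6, 94.8, 99.2 and 78.5 CPM in the control mice and 48.1, 54.6, 44.8 and 44.8 CPM in the HFD mice. Each HFD mouse was below each control mouse. The log2FC was -0.80 ± 0.24, with an adjusted P of 0.0740. The exact permutation test gave P = 0.0286, which restates the lack of overlap. Overlapping lncRNA rows held counts equal to 4.05% of those of Gbe1, the largest such share among the 10 genes.

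Pygm (chr19:6384399-6398459, plus strand), the muscle glycogen phosphorylase, frees glucose 1-phosphate from glycogen. It had 7097, 4746, 4270 and 4691 CPM in the control mice and 6915, 7004, 7048 and 6984 CPM in the HFD mice. The 4 HFD mice were nearly equal, with a coefficient of variation of 0.789%, while control replicate 1 stood above all of them and the other 3 control mice stood well below. The log2FC was 0.43 ± 0.20 (adjusted P = 0.211).

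Txnip (chr3:96557957-96561883, plus strand), the thioredoxin-interacting protein, restrains glucose uptake, and its gene is induced by glucose through the factors MondoA and ChREBP with their partner Mlx. Its level was 1345, 1360, 1323 and 1056 CPM in the control mice and 768, 891, 905 and 1012 CPM in the HFD mice. The highest HFD mouse lay just under the lowest control mouse. The log2FC was -0.51 ± 0.16, with an adjusted P of 0.0824. The exact permutation test gave P = 0.0286, which restates the lack of overlap. Mlxip (MondoA), Mlxipl (ChREBP) and Mlx had log2FC of 0.28, 0.01 and -0.25 with adjusted P-values of 0.696, 0.965 and 0.601, and the Txnip relative Arrdc4 had -0.02 (adjusted P = 0.941).

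The 250 bases before the start sites of the 3 genes without overlap are shown because these genes had the largest fitted changes together with Pfkfb3. They are RefSeq sequences of GRCm38.p6, 5′ to 3′ on the strand of the gene, at chr3:96557707-96557956 (plus), chr16:70313699-70313948 (plus) and chr11:5803797-5804046 (minus). Capitals mark CACGAG followed after any 5 bases by CACGAG again, a paired box searched on both strands and spelled after the carbohydrate response element known in Txnip.
Txnip: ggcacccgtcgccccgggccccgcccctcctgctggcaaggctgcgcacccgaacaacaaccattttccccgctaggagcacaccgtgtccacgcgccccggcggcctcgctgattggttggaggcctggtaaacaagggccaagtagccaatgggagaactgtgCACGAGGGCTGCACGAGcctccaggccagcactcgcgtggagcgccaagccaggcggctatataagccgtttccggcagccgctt
Gbe1: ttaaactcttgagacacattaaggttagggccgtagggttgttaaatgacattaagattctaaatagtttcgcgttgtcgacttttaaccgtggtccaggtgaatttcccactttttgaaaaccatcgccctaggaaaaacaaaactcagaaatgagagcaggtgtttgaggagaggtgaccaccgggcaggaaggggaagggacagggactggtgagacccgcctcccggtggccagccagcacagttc
Pgam2: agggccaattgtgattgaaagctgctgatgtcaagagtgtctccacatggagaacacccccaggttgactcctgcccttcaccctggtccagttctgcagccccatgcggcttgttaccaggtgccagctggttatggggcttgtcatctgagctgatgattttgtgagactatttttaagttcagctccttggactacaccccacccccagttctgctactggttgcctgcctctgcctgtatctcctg
The pair starts 85 bases before the start site of Txnip, and Txnip was the only 1 of 32851 promoter windows to hold these letters (0.00304%), which follows from where the letters came from. The palindrome CACGTG, the core of the E-box, was found in a window of Pfkfb3, Ldha and Pfkm and in 6.02% of all windows. TATAAA (12.4% of windows) was not found in the upstream windows of the 10 genes. Neither was CTA followed after any 4 bases by TAG, 1 spelling of the core bound by MEF2 factors (3.2%). Cores that end in TAA in place of TAG were not searched. The Pgam2 window above holds such a stretch, ctatttttaa, so the search does not show that these windows lack MEF2-type cores. These matches describe the letters of the windows and say nothing of binding in these mice.

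Pkm makes 2 forms of pyruvate kinase through a choice between neighbouring exons of equal length, and the adult muscle form M1 differs from the form M2 of growing and many other cells by that exon alone. The exons are shown because the deposited counts separate the transcripts that carry them. Both are exon 9 of their transcript on the plus strand of GRCm38, at chr9:59675029-59675195 in ENSMUST00000163694 (M1) and chr9:59675568-59675734 in ENSMUST00000034834 (M2). Each has 167 bases, and capitals mark positions at which they differ.
M1 exon: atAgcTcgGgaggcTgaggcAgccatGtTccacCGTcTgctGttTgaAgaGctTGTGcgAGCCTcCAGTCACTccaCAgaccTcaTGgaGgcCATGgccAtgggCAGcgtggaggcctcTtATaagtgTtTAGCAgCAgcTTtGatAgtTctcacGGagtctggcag
M2 exon: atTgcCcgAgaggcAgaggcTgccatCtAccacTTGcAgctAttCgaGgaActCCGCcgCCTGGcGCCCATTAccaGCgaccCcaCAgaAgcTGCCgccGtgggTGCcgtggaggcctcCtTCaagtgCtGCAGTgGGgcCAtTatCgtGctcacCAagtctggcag
They share 103 positions without gaps (61.7%). The M1 transcript held 64.8% and the M2 transcript 29.6% of all Pkm counts. Of the summed FPKM of this pair, the M1 transcript took 70.2% ± 3.94 (SD, n = 4) in control mice, 72.5% ± 2.54 in HFD mice, 74.4% ± 0.67 in HFD+RSV mice and 71.2% ± 5.35 in HFD+MET mice. The groups overlapped, and exact permutation tests gave P = 0.4 for HFD against control, P = 0.286 for HFD+RSV against HFD and P = 0.771 for HFD+MET against HFD. StringTie divides fragments between transcripts that share exons, so these shares are estimates.

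Such a division went differently in 1 mouse for Ldha. In 15 mice, ENSMUST00000005051 held most counts, between 15364 and 36174, and ENSMUST00000209984 held 1263 to 2936. In HFD replicate 3 the first had 1837 and the second 25642 counts. The sum per gene was not touched by this, and that mouse had 1382 CPM of Ldha, within the range of the other HFD mice. When each gene was read from its largest transcript alone, the log2FC of Ldha in the HFD group against control went from 0.38 to -0.01.

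**Figure D3:**
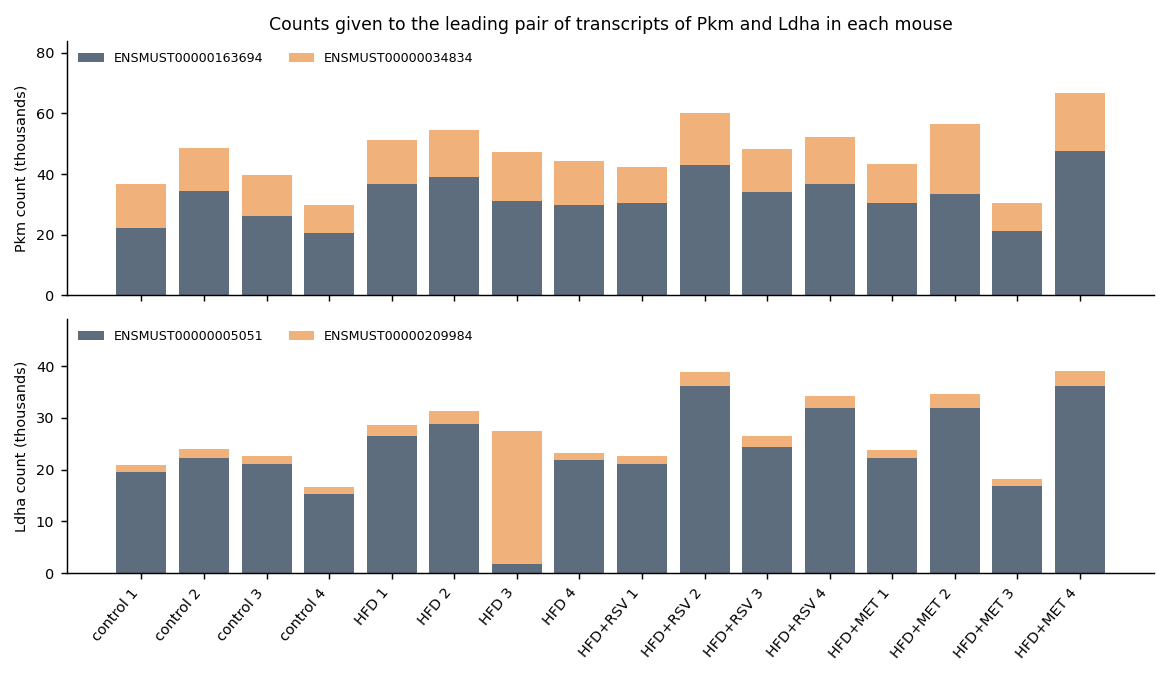
Counts (vertical axes from 0, in units of 1000 counts) of the leading pair of transcripts of Pkm and of Ldha in each of the 16 mice, stacked, with a colour for each transcript. HFD replicate 3 alone has most Ldha counts on ENSMUST00000209984 (25642 against 1837).

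The treated groups were each set against the same 4 HFD mice and the same 4 control mice, so the comparisons share animals. In HFD+RSV mice set against HFD mice, none of the 10 genes passed at an adjusted P of 0.05 with edgeR (0% of all genes) or with DESeq2 (0.0521% of all genes), and none had an unadjusted P under 0.05 (4.72% of all genes). The groups overlapped for all 10 genes (4.2% of all genes did not overlap). The log2FC lay between -0.07 ± 0.20 for Pfkm and 0.24 ± 0.35 for Pfkfb3, with a median of 0.02. In HFD+MET mice set against HFD mice, again none passed with edgeR (0.013% of all genes) or DESeq2 (0.219%), none had an unadjusted P under 0.05 (8.02% of all genes), and all 10 overlapped (3.72% of all genes did not). Here the log2FC lay between -0.21 ± 0.22 for Pgam2 and 0.27 ± 0.16 for Txnip, with a median of -0.03.

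Of the 3 genes whose HFD and control mice did not overlap, Txnip had 1056, 1111, 903 and 1053 CPM in the HFD+RSV mice, and 3 of these 4 lay above all HFD mice. The log2FC against HFD was 0.21 ± 0.16 (adjusted P = 1.00), and the exact permutation test gave P = 0.0857. In the HFD+MET mice Txnip had 952, 826, 1424 and 1113 CPM, with replicate 3 above every control mouse, and a log2FC of 0.27 against HFD (adjusted P = 0.656). Both treated groups overlapped the control group for Txnip. Against HFD, Mlxip, Mlxipl and Mlx had log2FC of -1.32, 0.02 and 0.24 in HFD+MET mice. In HFD+RSV mice these were -0.33, -0.02 and 0.001. Only Mlxip in HFD+MET mice had an unadjusted P under 0.05 (8.02% of all genes), and it did not pass with edgeR (adjusted P = 0.593).

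Pgam2 in the HFD+RSV mice was 732, 969, 732 and 947 CPM, above all 4 control mice. In the HFD+MET mice it was 703, 893, 427 and 947 CPM, and the lower pair of these lay within the control range. Gbe1 was 69.4, 44.6, 46.6 and 61.7 CPM in the HFD+RSV mice and 37.1, 81.7, 56.9 and 37.8 CPM in the HFD+MET mice. The treated mice thus spread over both the HFD and the control range of Gbe1, with log2FC against HFD of 0.21 ± 0.23 and 0.15 ± 0.23.

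Against the control group, the HFD+RSV group had no gene of the 10 past an adjusted P of 0.05 with edgeR (0.00651% of all genes) or DESeq2 (2.7%) and 3 at an unadjusted P under 0.05 (15.8% of all genes). These were Pgam2 (log2FC 0.61 ± 0.22, adjusted P = 0.214), Ldha (0.54 ± 0.20, adjusted P = 0.230) and Gbe1 (-0.59 ± 0.23, adjusted P = 0.256). Only Pgam2 did not overlap in this comparison (11.3% of all genes did not). The HFD+MET group against the control group had no adjusted call with edgeR (0% of all genes) or DESeq2 (0.918%) and 1 gene at an unadjusted P under 0.05 (9.5% of all genes), Gbe1 with a log2FC of -0.65 ± 0.23 (adjusted P = 0.382). All 10 genes overlapped between these groups (3.53% of all genes did not). Between the HFD+RSV and HFD+MET groups no gene of the 10 had an unadjusted P under 0.05 (4.68% of all genes) and none passed an adjusted P of 0.05 with edgeR (0% of all genes) or DESeq2 (0.0651%). All 10 overlapped (1.56% of all genes did not), and the largest fitted difference between the treatments was that of Pgam2, 0.19 ± 0.22 higher with RSV.

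The test of any difference among the 4 groups had 3 of the 10 genes at an unadjusted P under 0.05 (15.4% of all genes), Gbe1 (adjusted P = 0.245), Pgam2 (0.303) and Txnip (0.303). None passed the adjusted threshold with edgeR (0.117% of all genes).

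The other genes of the pathways were read from lists. Of 17 further glycolytic genes tested, 1 fell and none rose in the HFD group against control at an adjusted P of 0.05 (2.43% of all genes passed), and 5 had an unadjusted P under 0.05 (24.2% of all genes). The one that fell was Eno1, the enolase of non-muscle cells (log2FC -1.27 ± 0.30, adjusted P = 0.0465). It was at 36.8, 42.3, 91.3 and 29.1 FPKM in the control mice and between 20.9 and 24.0 FPKM in the HFD mice. Control replicate 3 held the highest value and was also the control mouse with the highest summed level of adipocyte genes (4460 FPKM). Without it the log2FC was -0.76 with an adjusted P of 0.107, and without it and HFD+MET replicate 3 it was -0.77 with an adjusted P of 0.0249. Whether reads of enolase copies elsewhere in the genome enter this level was not tested. The 4 most abundant genes of the list did not pass. These were the muscle aldolase Aldoa (log2FC 0.29 ± 0.20), the muscle enolase Eno3 (0.29 ± 0.24), triosephosphate isomerase Tpi1 (0.22 ± 0.19) and phosphoglycerate kinase Pgk1 (-0.01 ± 0.18).

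Of 20 further glycogen genes tested, 2 passed, 1 in each direction (2.43% of all genes), and 12 had an unadjusted P under 0.05 (24.2% of all genes), 8 of them with a higher and 4 with a lower level in the HFD group. Pygl, the liver form of glycogen phosphorylase, fell by 3.23 ± 0.80 on the log2 scale (adjusted P = 0.0491), from 13.1, 17.7, 40.2 and 5.87 FPKM to values between 1.4 and 3.11 FPKM. It was highest in control replicate 3, and without that mouse the log2FC was -2.60 with an adjusted P of 0.152. It was also high in HFD+MET replicate 3 (17.9 FPKM), the other mouse with a high adipocyte sum, and without both mice the log2FC was -2.60 with an adjusted P of 0.0296. Under 25 other settings Pygl passed in 11 and Eno1 in 10, and both missed the threshold when control replicate 2 or 3 or any 1 HFD mouse was left out (adjusted P-values up to 0.152 and 0.128).

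Among the most abundant genes of the glycogen list, 3 had values above 0 that did not pass. They were the phosphoglucomutase Pgm2 (log2FC 0.57 ± 0.22, adjusted P = 0.132), the UDP-glucose maker Ugp2 (0.09 ± 0.18) and Phka1, the regulatory subunit of phosphorylase kinase in muscle (0.49 ± 0.19, adjusted P = 0.141). Of 12 genes for pyruvate and lactate, none passed with edgeR (2 at an unadjusted P under 0.05, against 24.2% of all genes). The most abundant were Pdk4, a kinase that shuts pyruvate dehydrogenase (log2FC -0.44 ± 0.26), its subunit Pdha1 (-0.25 ± 0.16), Pdk2 (0.24 ± 0.14) and Gpd1 (-0.51 ± 0.27). Of 8 genes for glucose sensing and transport, none passed with edgeR (3 at an unadjusted P under 0.05, against the same 24.2%). Slc2a4, the insulin-responsive transporter GLUT4, had a log2FC of -0.12 ± 0.12. Prkag3, an AMP kinase subunit typical of glycolytic muscle, had 1.15 ± 0.30 (adjusted P = 0.0573). No gene of these 4 lists passed in either treated group against the HFD group with edgeR. Of the 57 genes tested in these lists, 2 had an unadjusted P under 0.05 with RSV (3.51%, against 4.72% of all genes) and 3 with MET (5.26%, against 8.02% of all genes).

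**Figure D4:**
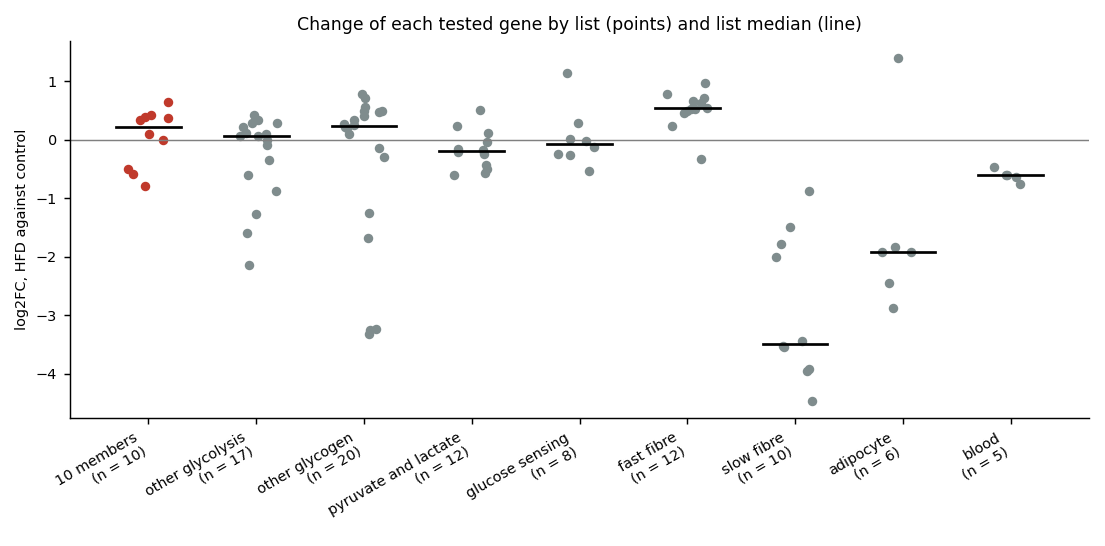
Log2FC in the HFD group against control (vertical axis) of each tested gene, by list, with the number of genes under each list. Points are genes, and lines are list medians, which stand at 0.22 for the 10 genes, 0.53 for fast fibre genes and -3.49 for slow fibre genes.

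Fibre-type genes are given beside the 10 genes because several of these differ between fibre types. Of 12 fast-fibre genes, 11 had a log2FC above 0 in the HFD group against control, 8 at an unadjusted P under 0.05 (24.2% of all genes), with a median of 0.53. Of 10 genes listed as slow-fibre, all 10 lay below 0, 8 at an unadjusted P under 0.05, with a median of -3.49. This list holds Myh2, the myosin of fast oxidative (type IIA) fibres, and without it 9 of 9 lay below 0, with a median of -3.53. In HFD+RSV against HFD mice, all 10 genes of the slow-fibre list lay above 0, with a median of 2.26. Of these, 5 had an unadjusted P under 0.05 (4.72% of all genes). With MET all 10 also lay above 0, with a median of 1.27, and none had such a P (8.02%). Of the fast-fibre genes, 10 lay below 0 with RSV and 11 with MET, none at an unadjusted P under 0.05. No gene of either list passed the adjusted threshold with edgeR in these comparisons. The summed level of the fast-fibre genes was 25300 to 35600 FPKM in the control mice and 36100 to 39000 in the HFD mice, and that of the slow-fibre list 229 to 1890 and 153 to 263 FPKM. Myh2 alone took 154 to 809 FPKM of the latter sum in control mice and 114 to 201 FPKM in HFD mice, and without it the ranges were 38.0 to 1080 and 39.6 to 120 FPKM, which overlap. The samples are whole muscle, in which fewer fibres of a kind and less RNA per fibre cannot be told apart, and the part of these markers in the results above was not tested.

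Control replicate 1 had the highest fast-fibre sum (35600 FPKM) and the lowest sum of the slow-fibre list (229 FPKM, or 38.0 without Myh2) of its group. The same mouse was the highest control mouse for Pfkm, Pgam2, Pkm, Ldha, Pygm and Pfkfb3 and the lowest for Gbe1. Without it the log2FC of Pygm went from 0.43 to 0.61 (adjusted P = 0.0713), that of Pgam2 to 0.78 (adjusted P = 0.0608) and that of Gbe1 to -0.92, which then passed (adjusted P = 0.0459).

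Adipocyte genes (Adipoq, Plin1, Cidec, Lep, Fabp4, Cfd) also differed between mice. Their summed level was 898 to 4460 FPKM in control mice, 144 to 823 in HFD mice, 212 to 962 in HFD+RSV mice and 162 to 3870 in HFD+MET mice, and none of the 6 genes was at 0 in all mice of a group. In this sum, which lacks the TMM scaling, HFD and control mice did not overlap. In HFD against control mice, 5 of the 6 genes had a log2FC below 0, while Lep lay above 0. The median was -1.92. An unadjusted P under 0.05 was reached by 3 (24.2% of all genes), and 3 did not overlap in log2 CPM (18.3%). None passed the adjusted threshold with edgeR. Control replicate 3 (4460 FPKM) and HFD+MET replicate 3 (3870 FPKM) stood highest. These mice also had the lowest levels of Pgam2, Pygm, Pfkm, Pkm, Hk2 and Gys1 in their groups. In HFD+MET replicate 3, Ldha (888 CPM) was the lowest of the group too, and Txnip (1424 CPM) was the highest. Without both mice, the log2FC in the HFD group against control was 0.52 for Pgam2 (adjusted P = 0.0685), -0.71 for Gbe1 (0.147) and -0.49 for Txnip (0.0644). Without HFD+MET replicate 3 alone, Pgam2 and Txnip passed at adjusted P-values of 0.0256 and 0.0250, and Gbe1 was at 0.0514. Leaving out these mice does not even out the groups. The control mice other than replicate 3 held 898 to 1510 FPKM of adipocyte genes, still above all HFD mice. The part of adipocyte genes in the results was not tested.

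**Figure D5:**
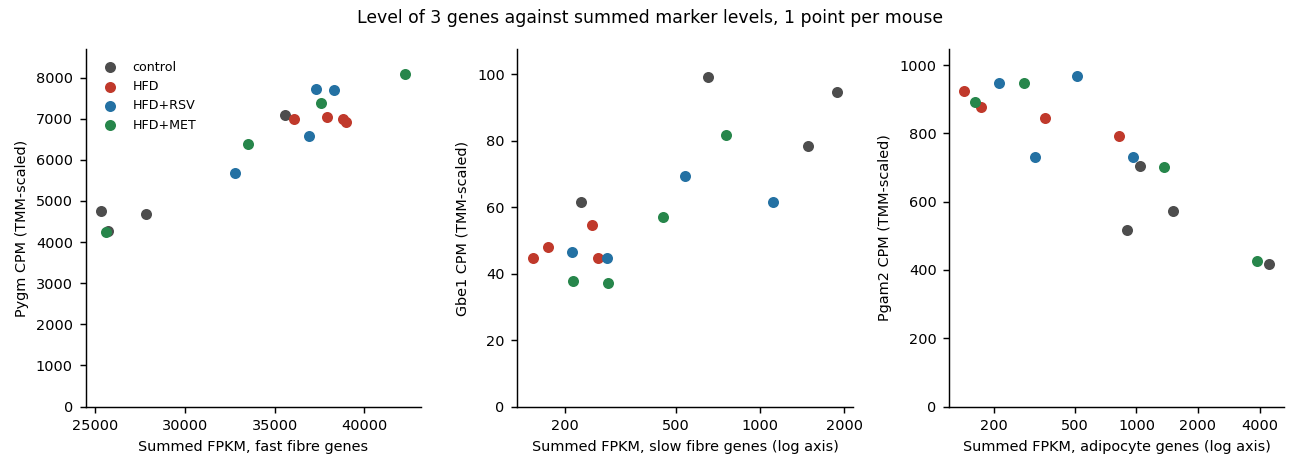
TMM-scaled CPM of Pygm, Gbe1 and Pgam2 (vertical axes from 0) against the summed FPKM of fast-fibre genes, of the slow-fibre list with Myh2 and of adipocyte genes (horizontal axes, the last 2 on a log scale), 1 point per mouse, coloured by group. The control mouse among the HFD mice in the first panel is replicate 1 (35600 FPKM of fast-fibre genes, 7097 CPM of Pygm).

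Blood genes summed to 435 to 1290 FPKM in control mice, 432 to 557 in HFD mice, 645 to 1740 in HFD+RSV mice and 611 to 2090 in HFD+MET mice. In this blood sum, which lacks the TMM scaling, both treated groups lay above the HFD group. In TMM-scaled log2 CPM, 3 of the 5 blood genes did not overlap between HFD+RSV and HFD mice (4.2% of all genes). Between HFD+MET and HFD mice, 3 did not overlap either (3.72%). An unadjusted P under 0.05 was reached by 4 with RSV (4.72% of all genes) and 5 with MET (8.02%). No blood gene passed the adjusted threshold with edgeR. Schwann cell genes reached 168 FPKM in HFD+RSV replicate 2 and 15.8 to 88.5 FPKM in the other mice. Macrophage genes lay between 14.6 and 51.0 FPKM in all mice. Endothelial genes summed to 65.1 to 86.7 FPKM in control mice, 55.2 to 61.3 in HFD mice, 56.2 to 73.1 in HFD+RSV mice and 56.6 to 104 in HFD+MET mice. In this sum, which lacks the TMM scaling, HFD and control mice did not overlap. In TMM-scaled log2 CPM, 2 of the 5 endothelial genes did not overlap (18.3% of all genes). Of the 5, 3 had a lower level in HFD than in control mice at an unadjusted P under 0.05 (24.2% of all genes). None passed the adjusted threshold with edgeR (2.43% of all genes). The part of these cell types in the results was not tested.

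The genes whose log2 CPM followed each of the 10 most closely over the 16 mice were taken from 3822 genes of at least moderate expression, as a description of mice that share groups and libraries. Pgam2 ran closest with Asb14 (r = 0.986) and the muscle chloride channel gene Clcn1 (r = 0.975). Pkm and Ldha both had the fast-fibre light chain gene Myl1 first (r = 0.973 and 0.958), followed by Adi1 (r = 0.972) and Smarcd3 (r = 0.954). Pygm had Phka1 (r = 0.972) and the fast-fibre gene Mybpc2 (r = 0.965), and Pfkm had Cacng6 (r = 0.961) and Gmpr (r = 0.956). Gys1 was nearest to the mitochondrial genes Got2 (r = 0.962) and Atp5g1 (r = 0.957), and Hk2 to Ugp2 (r = 0.919) and Golga4 (r = 0.886). Gbe1 was nearest to Hspa9, a mitochondrial chaperone gene (r = 0.936), and Acss2 (r = 0.906). Txnip had Fryl (r = 0.886) and Sin3a (r = 0.878), and Pfkfb3 had the lowest values, with Klf10 (r = 0.82) and Kdm5b (r = 0.793).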

How the data were processed

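Skeletal muscle RNA of 16 mice was measured by RNA sequencing, with 4 mice per group. According to the study's methods and the submitters' processing notes, ribosomal RNA was removed, reads were handled with fastp and HISAT2 on GRCm38, and fragments were counted with StringTie. The authors deposited expected counts per transcript, which were whole numbers without scaling between mice. An FPKM value for every transcript and mouse was deposited next to the counts. The study's methods also describe TMM normalization ahead of FPKM, which the deposited FPKM do not carry. In the mRNA table, 4 transcripts split over 2 lines were joined, and counts and FPKM were summed per gene name.

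Counts were tested with edgeR 4.0.16 in R 4.3.3 (filterByExpr by group at 10 counts and 15 in total, TMM, robust quasi-likelihood fit to 16 mice in 1 fit, Benjamini-Hochberg adjustment over all genes), and genes were called at an adjusted P under 0.05. The model was tested on simulated data. The SE of a log2FC is its absolute value divided by the root of F. Log2 CPM used a prior count of 2, and single genes were compared by exact two-sided permutation. DESeq2 1.42.0, other scaling factors, no filter, fewer mice, the largest transcript, added lncRNA counts and leaving out each mouse were alternatives. The spread between mice (common biological coefficient of variation 0.261) set the precision, at 20281801 to 34021101 counts per mouse.

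The 10 genes and all lists were chosen with earlier results of these data known. Named were the 10 genes, up to 4 called genes and the 4 most abundant genes of each other list, the marker lists, and the 2 genes most correlated with each of the 10 among genes with a mean log2 CPM of at least 5. Mlx and Arrdc4 were added after their values were seen. Of the genes this rule names, 2 of the glycogen list are not reported here. Promoter sequences came from RefSeq (all 10 genes matched) and exons from GENCODE M21.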

Additional observations from a re-analysis of the deposited data

Results flagged for a closer look

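In 5 of 40 sets of 4 mice (10 genes in 4 groups), 1 mouse stood apart by more than the 95% limit of Dixon's test, read as the share of the range of the set that lies between that mouse and its nearest neighbour. Chance flags about 1 in 20 such sets when they are independent. These sets share mice, and several of the 10 genes run together over the mice, so 5 of 40 is not read as an excess. HFD+MET replicate 3 was low for Pfkm (share 0.905), Ldha (0.885) and Pkm (0.846), at 1838, 888 and 1364 CPM, while the other 3 mice of the group lay at or above 3635, 1478 and 2292 CPM. Control replicate 1 was high for Pkm (0.896), at 2249 CPM against 1635 to 1690 CPM in the other control mice. Control replicate 4 was low for Txnip (0.89), at 1056 CPM against 1323 to 1360 CPM. Marker levels of the first 2 mice are given above.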

How the results depend on the processing

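No gene of the 10 passed in the comparisons other than HFD against control under any of the 24 or 25 settings tried for each. In HFD against control, 0 of the 10 passed in the 16-mouse fit, 3 with DESeq2, 2 with only the 8 mice compared (Pgam2 and Gbe1), 3 with 12 mice without metformin, and 0 to 2 when 1 mouse was left out, where Gbe1 passed without control replicate 1 or HFD+MET replicate 2. Over all genes, 374 passed in this comparison against 1544 with DESeq2, 158 without a filter, 998 with the 8 mice, 1616 with the 12 mice, 32 with the largest transcript of each gene, and 16 (without control replicate 2) to 1588 (without HFD+MET replicate 3) with 1 mouse left out. For HFD+RSV against HFD, 0 genes passed against 8 with DESeq2, 1 with the largest transcript and 0 to 1 with 1 mouse left out. For HFD+MET against HFD, 2 genes passed against 31 with DESeq2, 1 with the mice compared, 1 with the largest transcript, 1 with overlapping lncRNA counts added, 0 without both mice of highest adipocyte level, and 0 to 2 with 1 mouse left out. The addition of lncRNA counts and the fit without both mice were chosen after seeing the data. The tables give no strand, so a planned same-strand addition was not run. The causes of these shifts were not tested.

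In HFD against control, Pgam2 lay between 0.52 and 0.78, Gbe1 between -0.92 and -0.64 and Txnip between -0.59 and -0.44 under all 25 settings. Of 250 values there, 8 changed sign, 7 of Gys1 and 1 of Ldha, and none was called. No paired analysis was possible because replicate numbers only name the mice and pair none of them. With 4 mice a group and changes under 2-fold, the spread between mice limits what can be called.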
